A study of Mus musculus with 16 samples.

Results

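The 9 genes described here are those usually read for the plasma cell, the B cell descendant that secretes antibody: Tnfrsf17, Jchain, Mzb1, Prdm1, Irf4, Xbp1, Sdc1, Derl3 and Fkbp11. They were chosen by name, all 9 were matched to a probe by the gene name in the array files, and all 9 were among the 25675 genes tested. They were measured in whole lungs of female mice on 16 single-colour arrays, 1 per sample. Diphtheria toxin (DT) kills cells that carry its receptor, and ARF-DTR mice carry that receptor under the promoter of Arf, which Cdkn2a encodes and senescent cells use. There were 4 lungs from ARF-DTR mice of 12 months given DT, 4 from ARF-DTR mice of 12 months given saline (PBS) and 4 from uninjected ARF-DTR mice of 2 months. Wild type mice of 12 months gave 2 lungs after DT and 2 after PBS. Injections of PBS or of DT at 50 microgram per kg were made into the peritoneum every 2 weeks over 1 month. Whether each sample is a mouse of its own is not in the labels, and p-values then reflect only how these samples spread, possibly for technical reasons.

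A plasma cell forms when an activated B cell switches its programme. The transcription factor IRF4 starts the switch, PRDM1 (Blimp-1) silences B cell genes, and XBP1 enlarges the endoplasmic reticulum (ER), where antibody is folded. The finished cell displays syndecan-1 (SDC1) and the survival receptor BCMA, the product of Tnfrsf17. Its secretory line includes the J chain, which joins IgM and IgA units, MZB1, a chaperone partner that helps to assemble antibody, DERL3, which passes misfolded proteins out of the ER, and FKBP11, a proline isomerase of the ER. Plasma cells settle in the mucosa of the airways. XBP1 and SDC1 are also made by epithelial cells, PRDM1 by T cells, and IRF4 by T cells, dendritic cells and macrophages. At least those 4 genes therefore mark more than the plasma cell in a whole lung.

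The arrays filled 2 slides of 8, per the file headers. Slide 1 held the 12-month PBS and the 2-month ARF-DTR lungs, and slide 2 held the 12-month DT ARF-DTR lungs and both wild type groups. Age in ARF-DTR mice and DT in wild type mice were therefore compared within a slide, while DT against PBS in ARF-DTR mice was compared across slides, where slide and treatment cannot be told apart. Within slide 1 the 2-month lungs lay in row 1 and the PBS lungs in row 2, and within slide 2 the DT ARF-DTR lungs lay in row 1 and both wild type groups in row 2, so row and group cannot be told apart in the age comparison or between DT ARF-DTR and wild type lungs. Of the probes on an array, 55.6% to 66.9% were well above background. Markers of lung tissue were present throughout: 18 of 18 epithelial and 9 of 9 endothelial markers were well above background on all 16 arrays. Of the 9 plasma cell genes, 8 were well above background on all 16 arrays, and Tnfrsf17 on 15. Levels are given as scaled log2 signals, the log2 of the spot signal minus that of the 75th percentile of its array, so that 0 is the signal of that percentile. They do not compare one gene with another, because probes differ in brightness. In a bulk lung, more cells of a type and more RNA per cell cannot be told apart.

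Probes of 60 bases read the genes, and their positions in the mouse build mm9 were chr16:11320045-11320104 for Tnfrsf17, chr5:88949919-88949978 for Jchain, chr10:44157089-44157148 for Prdm1 and chr13:30858532-30858591 for Irf4. The probes of Xbp1, Sdc1, Derl3 and Fkbp11 lay at chr11:5425816-5425875, chr12:8799383-8799442, chr10:75358503-75358562 and chr15:98554809-98554868. Each gene had 1 probe, and that of Mzb1 was spotted 10 times on each array and averaged.

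Because 5 of the genes moved together, the 250 bases before the start sites of the 9 genes, where known, were searched for words to which plasma cell factors are known to bind. Promoters came from RefSeq on the build GRCm38.p6, where all but Mzb1, 8 of the 9 genes, had at least 1. All words were read on both strands. ACGTG is the core of elements bound by XBP1, and TGACGTG is a longer form that contains it. The ER stress element was taken as CCAAT with 9 bases of any kind between it and a following CCACG. The paired GAAA word, in which 2 bases of any kind stand between the copies, is the kind of site bound by interferon regulatory factors such as IRF4. The promoters of 3 genes that rose with age are shown because they hold the only matches, 5′ to 3′ on the strand of the gene, with the matches in capitals.
Derl3, chr10:75893148-75893397, plus strand: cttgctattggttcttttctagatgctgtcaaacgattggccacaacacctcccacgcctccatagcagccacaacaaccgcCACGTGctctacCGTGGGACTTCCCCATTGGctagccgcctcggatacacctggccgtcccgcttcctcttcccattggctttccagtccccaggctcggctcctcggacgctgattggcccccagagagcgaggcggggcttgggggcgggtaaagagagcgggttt
Jchain, chr5:88527898-88528147, minus strand: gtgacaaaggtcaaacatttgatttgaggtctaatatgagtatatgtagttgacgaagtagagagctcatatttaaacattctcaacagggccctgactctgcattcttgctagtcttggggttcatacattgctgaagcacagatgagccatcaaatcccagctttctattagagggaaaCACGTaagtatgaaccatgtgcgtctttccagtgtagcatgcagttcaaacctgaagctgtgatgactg
Tnfrsf17, chr16:11313559-11313808, plus strand: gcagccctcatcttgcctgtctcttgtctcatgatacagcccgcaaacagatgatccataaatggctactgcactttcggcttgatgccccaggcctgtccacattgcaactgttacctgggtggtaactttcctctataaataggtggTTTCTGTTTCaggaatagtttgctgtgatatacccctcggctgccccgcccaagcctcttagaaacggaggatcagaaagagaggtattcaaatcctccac
The Derl3 promoter held ACGTG on both strands, as overlapping matches that start 168 and 167 bases before the start site, and the ER stress element on the opposite strand from 156 bases before it. That element was in 0.113% of the 32851 promoters of the table, and in 1 of the 9 promoters of these 8 genes, of which Fkbp11 has 2. Jchain held ACGTG once, on the opposite strand from 69 bases before the start site, and ACGTG was in 16.6% of all promoters. Tnfrsf17 held the paired GAAA word once, on the opposite strand from 101 bases before the start site, a word found in 2.98% of all promoters. TGACGTG, present in 1.65% of all promoters, was in none of the 9. A match is a description of letters and not of binding, and the promoters of Prdm1, Irf4, Xbp1, Sdc1 and Fkbp11 held none of these words in this window.

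The first comparison asked which of the genes differ between old and young lungs that both carry the transgene. The 2-month mice were not injected, so age and PBS injection cannot be told apart in it. In this text, a change with age is short for that comparison. In 12-month PBS ARF-DTR lungs 5 of the 9 genes were higher than in 2-month ARF-DTR lungs and none was lower, in a test in which 2.73% of all genes rose and 3.42% fell (limma, with p-values adjusted by Benjamini-Hochberg across the whole table and a threshold of 0.05). With arrays scaled by their median, 529 genes rose and 1457 fell with age, in place of 701 and 877. The 5 were Jchain, Tnfrsf17, Mzb1, Derl3 and Irf4. In these 5 genes the groups did not overlap, against 13% of all genes. The median change of the 9 genes was 0.84 on the log2 scale, beside -0.03 for all genes tested.

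Jchain showed the widest separation. Its scaled log2 signals were 5.91, 3.42, 5.45 and 5.93 in 12-month PBS ARF-DTR lungs, against 0.52, -0.84, 0.85 and 0.69 in 2-month ARF-DTR lungs. Every old lung lay above every young lung, and the second PBS lung lay well below the other 3. The rise of 4.87 ± 0.53 on the log2 scale (SE; 29.3-fold, adjusted p = 0.000256 in limma) was the 16th largest of the 25675 genes, and without the second PBS lung it was 44.01-fold.

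Tnfrsf17 was a dim probe in young lungs. It had scaled log2 signals of -1.80, -3.91, -2.03 and -1.79 in 12-month PBS ARF-DTR lungs, against -4.79, -6.01, -4.54 and -4.57 in 2-month ARF-DTR lungs. The groups did not overlap, and the second lung was the low one in each. In young lungs the probe was well above background on 3 of 4 arrays, so the rise of 2.59 ± 0.47 (adjusted p = 0.00661 in limma) is a 6.04-fold change as measured and at least 5.78-fold when the dim array is set to the lowest signal that counts as well above background. With another background correction, normexp, the rise was 2.82-fold (adjusted p = 0.00781).

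Mzb1 and Derl3, the chaperone partner and the ER exit protein, followed the same lungs. Mzb1 had 2.68, 0.18, 1.79 and 2.01 in 12-month PBS ARF-DTR lungs, against -0.59, -0.37, -0.27 and -0.49 in 2-month ARF-DTR lungs, a rise of 2.09 ± 0.42 (4.27-fold, adjusted p = 0.0113 in limma). Derl3 had 1.12, -1.62, 0.13 and 0.75 in 12-month PBS ARF-DTR lungs, against -1.79, -2.02, -1.82 and -1.76 in 2-month ARF-DTR lungs. The second PBS lung stood close to the young lungs for Derl3, and the other 3 lay far above them. Derl3 rose by 1.94 ± 0.47 (3.84-fold, adjusted p = 0.0271 in limma).

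Among the 3 transcription factors, only Irf4 passed the test with age. It had 0.21, -0.90, -0.23 and -0.35 in 12-month PBS ARF-DTR lungs, against -0.96, -1.26, -1.14 and -1.30 in 2-month ARF-DTR lungs. The lowest old lung was barely above the highest young lung. The rise was 0.84 ± 0.21 (1.80-fold, adjusted p = 0.0351 in limma). The calls of Irf4 and Derl3 were the weaker ones: Irf4 was lost on leaving out any 2-month lung or PBS lung 1, 3 or 4 (adjusted p = 0.0547 to 0.0917), with median scaling (0.0545) and with no filter on dim probes (0.0544), and Derl3 on leaving out 2-month lung 1, 2 or 4 or PBS lung 1, 3 or 4 (adjusted p = 0.0601 to 0.0847). Jchain, Tnfrsf17 and Mzb1 passed in each of those fits.

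The other 4 genes did not pass with age (limma), and none of them had an unadjusted p under 0.05. Prdm1 had 0.27, -0.03, 0.40 and 0.13 in 12-month PBS ARF-DTR lungs, against 0.49, 0.44, 0.35 and -0.02 in 2-month ARF-DTR lungs, and the groups overlapped. Its difference was -0.13 with a 95% confidence interval of -0.41 to 0.16. Xbp1 had 6.003, 5.74, 5.72 and 5.94 in PBS lungs, against 5.80, 5.79, 5.74 and 5.68 in 2-month lungs, a difference of 0.09 (interval -0.06 to 0.25). For these genes old and young lungs were mixed in order. Sdc1 had 2.62, 2.49, 2.57 and 2.80 in PBS lungs, against 2.85, 2.55, 2.81 and 2.68 in 2-month lungs, a difference of -0.10 (interval -0.33 to 0.12). Fkbp11 had -2.02, -2.70, -2.62 and -1.86 in PBS lungs, against -2.07, -1.71, -1.94 and -1.89 in 2-month lungs, a difference of -0.39 (interval -0.89 to 0.10). These intervals for Prdm1, Xbp1 and Sdc1 leave no room for changes of the size seen in Jchain, Tnfrsf17, Mzb1 or Derl3.

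**Figure D1:**
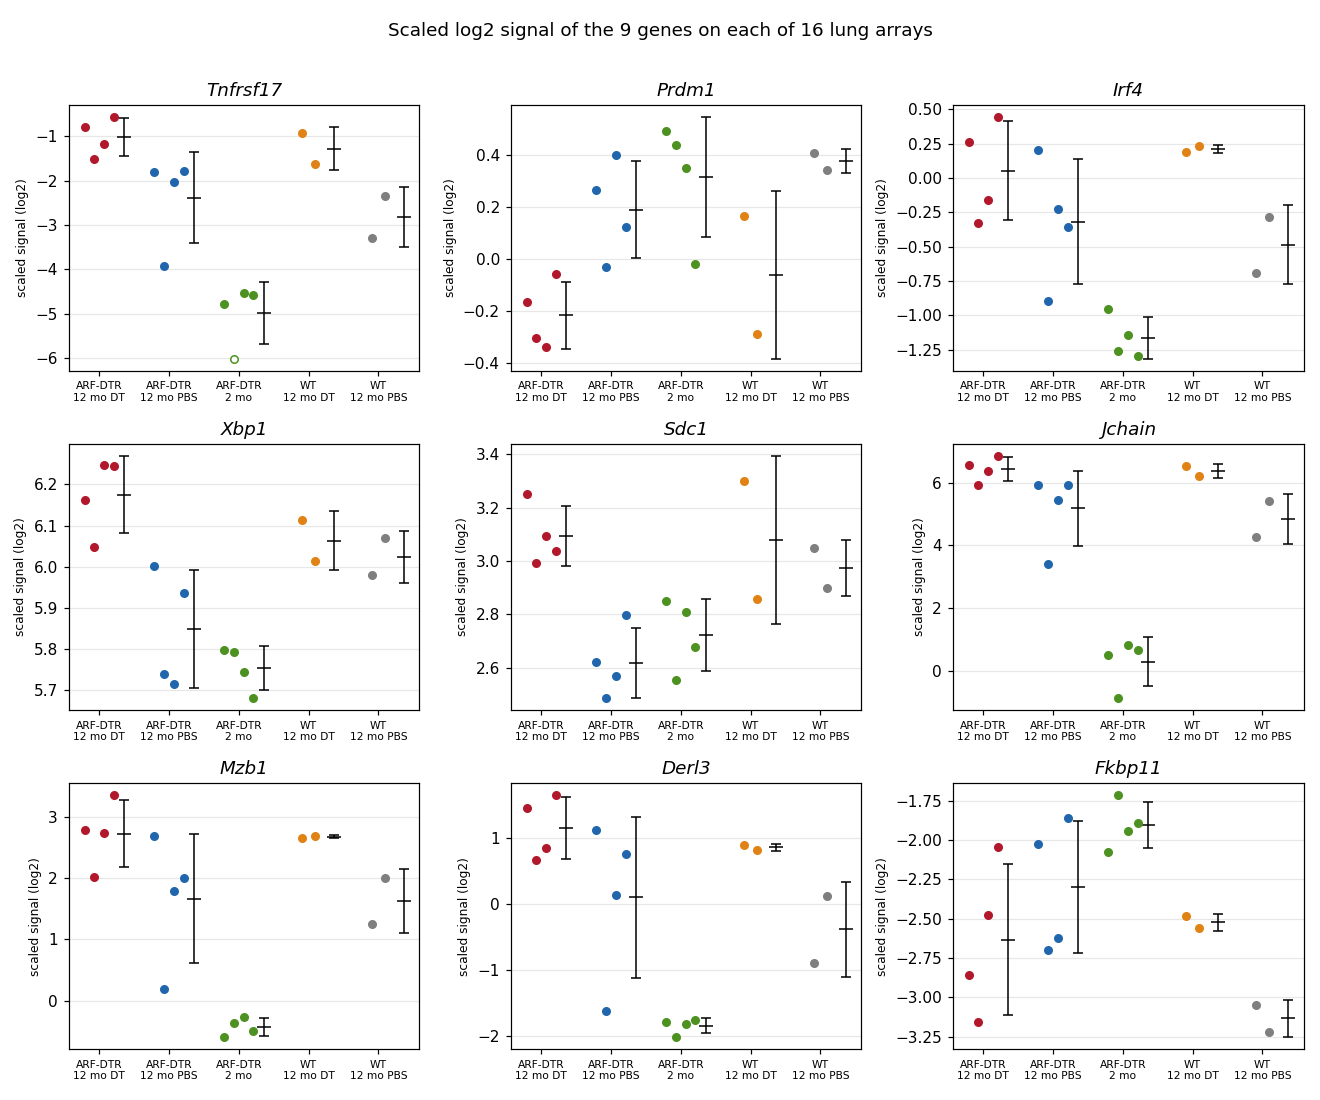
Scaled log2 signal (vertical axis; each gene has its own scale) of the 9 genes on each array, by group; points are arrays in replicate order, the open point was not well above background, and the bars are the group mean ± SD. Jchain, Tnfrsf17, Mzb1, Derl3 and Irf4 are lowest in all 4 of the 2-month lungs, and the second 12-month PBS ARF-DTR lung is the low one of its group in 8 of 9 genes.

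The second comparison asked what DT did in old ARF-DTR lungs, in which it can kill cells with an active Arf promoter. In 12-month DT ARF-DTR lungs Sdc1, Xbp1 and Tnfrsf17 were higher than in 12-month PBS ARF-DTR lungs and Prdm1 was lower, 3 of 9 genes higher and 1 lower. Of all genes, 15.8% rose and 13.4% fell in this comparison, which crosses slides, and with arrays scaled by their median 8697 genes rose and 1759 fell, in place of 4057 and 3451. The groups did not overlap in 4 of the 9 genes, against 30.5% of all genes.

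Sdc1, the surface proteoglycan, had 3.25, 2.99, 3.09 and 3.04 in DT lungs, against 2.62, 2.49, 2.57 and 2.80 in PBS lungs. The groups did not overlap, and the rise was 0.47 ± 0.11 (1.39-fold, adjusted p = 0.00577 in limma). Xbp1, the factor that enlarges the ER, had 6.16, 6.05, 6.25 and 6.24 in DT lungs, against 6.003, 5.74, 5.72 and 5.94 in PBS lungs, a rise of 0.33 ± 0.07 (1.25-fold, adjusted p = 0.00625). After quantile normalization the Xbp1 difference was 0.11 (adjusted p = 0.201) and no longer passed. For both genes DT lungs were above all PBS lungs by margins smaller than the range within the groups.

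Tnfrsf17 had -0.79, -1.52, -1.18 and -0.57 in DT lungs, against -1.80, -3.91, -2.03 and -1.79 in PBS lungs. All 4 DT lungs were above all 4 PBS lungs, and the rise was 1.37 ± 0.47 (2.58-fold, adjusted p = 0.0455 in limma). Without the second PBS lung the change was 0.86 (adjusted p = 0.107). Leaving out PBS lung 3 or DT lung 1, 3 or 4 also lost the call, with changes of 1.49, 1.29, 1.42 and 1.22.

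Prdm1 was the gene that fell. It had -0.17, -0.30, -0.34 and -0.06 in DT lungs, against 0.27, -0.03, 0.40 and 0.13 in PBS lungs. The highest DT lung lay just below the lowest PBS lung. Prdm1 fell by 0.41 ± 0.13 on the log2 scale (to 0.754 of the PBS level, adjusted p = 0.0348 in limma), and it did not pass with arrays scaled by their median (-0.23, adjusted p = 0.247). It also did not pass on leaving out PBS lung 1, 3 or 4 or DT lung 1, 2 or 3 (adjusted p = 0.0502 to 0.0987).

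Jchain, Mzb1 and Derl3, which rose with age, gave positive differences with DT that missed the threshold. Jchain had 6.56, 5.93, 6.37 and 6.84 in DT lungs, against 5.91, 3.42, 5.45 and 5.93 in PBS lungs, and the lowest DT lung fell within the PBS range. The Jchain difference was 1.25 (95% confidence interval 0.11 to 2.38, adjusted p = 0.0923 in limma), and without the second PBS lung it was 0.66. Mzb1 had 2.78, 2.02, 2.75 and 3.35 in DT lungs, against 2.68, 0.18, 1.79 and 2.01 in PBS lungs, and Derl3 had 1.44, 0.66, 0.85 and 1.64 in DT lungs, against 1.12, -1.62, 0.13 and 0.75 in PBS lungs. In both genes the second PBS lung was far below the other PBS lungs and all DT lungs. For Mzb1 the DT lung at 2.02 lay within the PBS range, and for Derl3 those at 0.66 and 0.85. Mzb1 differed by 1.06 (interval 0.15 to 1.97, adjusted p = 0.0756) and Derl3 by 1.05 (interval 0.05 to 2.06, adjusted p = 0.106), against 0.56 and 0.48 without the second PBS lung. Without the first PBS lung both passed (1.397 for Mzb1, adjusted p = 0.0257, and 1.395 for Derl3, adjusted p = 0.0434), and Mzb1 also passed without DT lung 2 (adjusted p = 0.0433). Those 3 genes passed with arrays scaled by their median, at 1.42 (adjusted p = 0.0419), 1.24 (adjusted p = 0.0293) and 1.23 (adjusted p = 0.0461), a scaling that moves the median of all genes by 0.18. Irf4 had 0.26, -0.33, -0.16 and 0.44 in DT lungs, against 0.21, -0.90, -0.23 and -0.35 in PBS lungs, a difference of 0.37 (adjusted p = 0.208). Fkbp11 had -2.86, -3.16, -2.47 and -2.04 in DT lungs, against -2.02, -2.70, -2.62 and -1.86 in PBS lungs, a difference of -0.33 (adjusted p = 0.287). The groups overlapped for both. The second PBS lung was the lowest of its group in 8 of the 9 genes and the second DT lung the lowest of its group in 8 of the 9.

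Wild type lungs on the same slide gave a way to set DT-treated ARF-DTR lungs against PBS lungs with slide held constant, a comparison added after the slides were read. Genotype and DT differ together in that comparison and cannot be told apart there. Against 12-month PBS wild type lungs, 0 of the 9 genes passed in 12-month DT ARF-DTR lungs (limma), 4 had an unadjusted p under 0.05, and 5.55% of all genes passed. The groups did not overlap in 5 of the 9 genes, against 33.9% of all genes. Tnfrsf17 differed by 1.80 (95% confidence interval 0.55 to 3.06, adjusted p = 0.0864), Jchain by 1.58 (interval 0.19 to 2.97, adjusted p = 0.168) and Prdm1 by -0.59 (interval -0.94 to -0.24, adjusted p = 0.0505). For Sdc1 the same-slide difference was 0.12 (interval -0.16 to 0.40) and for Xbp1 0.15 (interval -0.04 to 0.35). Both were smaller than the differences between DT and PBS ARF-DTR lungs across slides. With PBS in both genotypes, also across slides, ARF-DTR minus wild type was -0.36 for Sdc1 and -0.18 for Xbp1. The parts of slide and genotype were not tested.

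DT in wild type mice, which lack the receptor, was read from 2 lungs against 2. None of the 9 genes passed (limma; 3 had an unadjusted p under 0.05: Tnfrsf17, Prdm1 and Irf4), and 0.179% of all genes did. Jchain had 6.54 and 6.22 in DT wild type lungs, against 4.29 and 5.41 in PBS wild type lungs. Tnfrsf17 had -0.93 and -1.62 in DT wild type lungs, against -3.29 and -2.35 in PBS wild type lungs. Both genes were higher in both DT lungs, by 1.53 (interval -0.08 to 3.14) and 1.54 (interval 0.09 to 2.99). Mzb1 had 2.66 and 2.69 in DT wild type lungs, against 1.26 and 2.003 in PBS wild type lungs, a difference of 1.05 (interval -0.24 to 2.33). Derl3 had 0.89 and 0.82 in DT wild type lungs, against -0.90 and 0.12 in PBS wild type lungs, a difference of 1.24 (interval -0.18 to 2.67). Irf4 had 0.19 and 0.23 in DT wild type lungs, against -0.69 and -0.28 in PBS wild type lungs, a difference of 0.70 (interval 0.04 to 1.36). In these 3 genes too, both DT lungs were above both PBS lungs. Prdm1 had 0.17 and -0.29 in DT wild type lungs, against 0.41 and 0.35 in PBS wild type lungs, and its difference of -0.44 (interval -0.84 to -0.03) was of the same sign as in ARF-DTR lungs. Fkbp11 had -2.48 and -2.56 in DT wild type lungs, against -3.05 and -3.22 in PBS wild type lungs, a difference of 0.61 (interval -0.08 to 1.31). The groups did not overlap in 7 of the 9 genes, against 43.5% of all genes with groups of this size. The exceptions were Xbp1, with 6.11 and 6.01 in DT wild type lungs, against 5.98 and 6.07 in PBS wild type lungs, and Sdc1, with 3.30 and 2.86 in DT wild type lungs, against 3.05 and 2.90 in PBS wild type lungs.

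The difference between the DT response of ARF-DTR and that of wild type lungs was tested directly as an interaction, in which the PBS ARF-DTR lungs were on the other slide, so that slide and interaction cannot be told apart. None of the 9 genes passed (limma; 2 had an unadjusted p under 0.05, Xbp1 and Fkbp11), beside 2.11% of all genes. The interaction was -0.17 for Tnfrsf17 (95% confidence interval -1.95 to 1.60), -0.29 for Jchain (interval -2.26 to 1.68) and 0.03 for Prdm1 (interval -0.46 to 0.53). Intervals this wide cannot separate an equal response from one that differs several-fold for Tnfrsf17 and Jchain. For Xbp1 it was 0.29 (interval 0.01 to 0.56, adjusted p = 0.218), for Sdc1 0.37 (interval -0.03 to 0.76) and for Fkbp11 -0.95 (interval -1.80 to -0.10, adjusted p = 0.192).

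**Figure D2:**
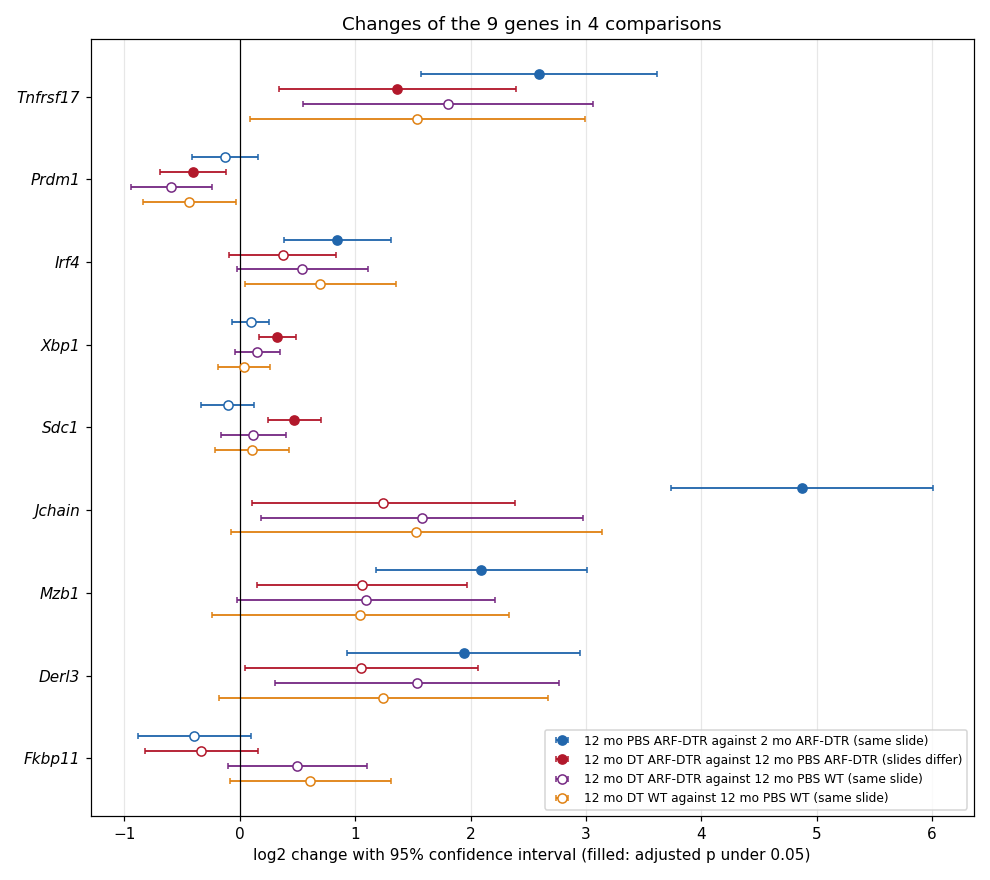
Log2 change (horizontal axis, with 95% confidence interval) of each gene in 4 comparisons, filled where the adjusted p was under 0.05. Jchain stands at 4.87 with age, and in the comparison of DT with PBS in wild type lungs all 9 points are open.

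The genotypes were also set against each other under the same injection. With PBS, ARF-DTR against wild type lungs, which again crosses slides, 1 of the 9 genes passed, beside 23.6% of all genes. That gene was Fkbp11, the ER isomerase, with -2.02, -2.70, -2.62 and -1.86 in PBS ARF-DTR lungs, against -3.05 and -3.22 in PBS wild type lungs. The groups did not overlap, and the difference was 0.83 ± 0.28 (1.78-fold, adjusted p = 0.0458 in limma). The call was lost without either wild type lung (0.92 and 0.75) and without PBS ARF-DTR lung 1 or 4 (0.74 and 0.69), and with normexp background the difference was 0.39 (adjusted p = 0.140). With DT, within 1 slide, none of the 9 genes passed and none had an unadjusted p under 0.05 (limma), beside 0.923% of all genes. The DT ARF-DTR minus DT wild type difference was 0.05 for Jchain (95% confidence interval -1.35 to 1.44), 0.26 for Tnfrsf17 (interval -0.99 to 1.52) and 0.01 for Sdc1 (interval -0.26 to 0.29).

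Between 12-month DT ARF-DTR and 2-month ARF-DTR lungs all 9 genes passed, 7 higher and 2 lower, beside 14.7% of all genes that rose and 15.9% that fell (4876 and 2556 genes with arrays scaled by their median, in place of 3787 and 4092). This comparison crosses slides, shares its arrays with the first and second, and joins age, DT and injection, which cannot be told apart in it. Jchain differed by 6.12 ± 0.53 (69.5-fold, adjusted p = 7.22e-06 in limma), Tnfrsf17 by 3.96 (15.6-fold as measured with a dim young lung, and 6.17-fold with normexp), Mzb1 by 3.15 (8.90-fold) and Derl3 by 2.99 (7.97-fold). The B cell and plasma cell factor Irf4 differed by 1.22, Xbp1 by 0.42 and Sdc1 by 0.37. Prdm1 fell by 0.53 (adjusted p = 0.00853) and Fkbp11 fell by 0.73 (adjusted p = 0.0278), and the Fkbp11 groups overlapped. Fkbp11 lost its call without 2-month lung 2, 3 or 4 or DT lung 1 or 2 (adjusted p = 0.0503 to 0.0748), and Sdc1 without 2-month lung 2 or DT lung 1 (adjusted p = 0.0584 and 0.0544).

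Over the 5 groups, Tnfrsf17, Jchain, Mzb1 and Derl3 kept 1 order of means. From low to high it was 2-month ARF-DTR, 12-month PBS wild type, 12-month PBS ARF-DTR, 12-month DT wild type and 12-month DT ARF-DTR. Jchain averaged 0.31 ± 0.77 (SD, n = 4), 4.85 ± 0.79 (n = 2), 5.18 ± 1.19 (n = 4), 6.38 ± 0.23 (n = 2) and 6.43 ± 0.38 (n = 4) along that order. For each of the 4 genes the 2-month lungs were apart from their neighbour, the PBS groups overlapped each other and the DT groups overlapped each other. The step between PBS ARF-DTR and DT wild type lungs was free of overlap for Tnfrsf17 and Jchain and not for Mzb1 and Derl3. Irf4 had the same start, with 2-month lungs apart from the rest, but DT wild type lungs stood highest at 0.21 ± 0.03 (SD, n = 2). Xbp1 was highest in DT ARF-DTR lungs, at 6.18 ± 0.09, and lowest in 2-month lungs, at 5.75 ± 0.05, with every neighbour in the order overlapping (SD, n = 4 each). Sdc1 was lowest in PBS ARF-DTR lungs, at 2.62 ± 0.13, and its 2-month lungs did not overlap with the PBS wild type lungs above them (SD, n = 4). Prdm1 was lowest in DT ARF-DTR lungs, at -0.22 ± 0.13 (SD, n = 4), and highest in PBS wild type lungs, at 0.38 ± 0.05 (SD, n = 2). Fkbp11 was lowest in PBS wild type lungs, at -3.13 ± 0.12 (SD, n = 2), and highest in 2-month lungs, at -1.90 ± 0.15 (SD, n = 4). For Prdm1 and Fkbp11 every neighbour in the order overlapped.

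The genes split into a block and a remainder by how they varied across the 16 lungs, which share slide, age and treatment. The 10 pairs among Tnfrsf17, Jchain, Mzb1, Derl3 and Irf4 had Pearson r between 0.92 and 0.98. After the group means were removed, r for these pairs was 0.74 to 0.99, with Tnfrsf17 and Jchain the closest pair at 0.99. Xbp1 followed the block at 0.77 to 0.85 over the 16 lungs, and Sdc1 at 0.52 to 0.61. Prdm1 and Fkbp11 ran opposite to the block over the 16 lungs, with r of -0.56 to -0.29, and with it within groups, at 0.23 to 0.68. These are descriptions over 16 arrays of 5 groups.

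**Figure D3:**
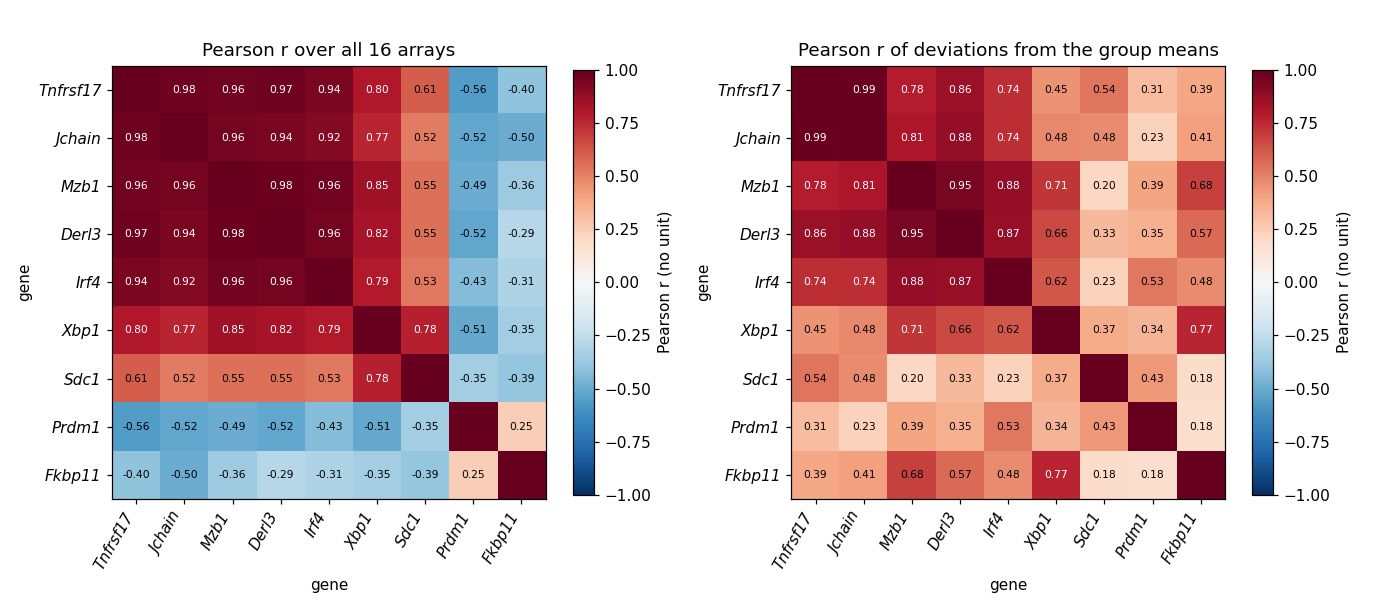
Pearson r (no unit) of each pair of the 9 genes over 16 arrays (left) and of their deviations from the group means (right). Tnfrsf17, Jchain, Mzb1, Derl3 and Irf4 form a block of r of 0.92 or more on the left, and the negative values of Prdm1 and Fkbp11 on the left are positive on the right.

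The genes outside the 9 whose profile over the 16 lungs was most like each member were found among 15931 genes with a proper symbol. Immunoglobulin heavy chain variable genes were among the 3 closest for Tnfrsf17, Jchain and Mzb1: Ighv1-77 had r of 0.98 with Tnfrsf17, 0.99 with Jchain and 0.98 with Mzb1, and Ighv1-61 had r of 0.98 with each of those 3. The closest single genes were Ccl8, a chemokine, for Tnfrsf17 (0.98) and Oosp1 for Jchain (0.99). For Derl3 they were Pdcd1, the inhibitory receptor PD-1 (0.99), the chemokine gene Cxcl9 (0.98) and Nuggc (0.98). Irf4 was closest to Slamf8 (0.97), Dnase1l3 (0.96) and Ighv1-61 (0.96). Xbp1 stood apart from these with Spcs3 (0.97) and Spcs2 (0.96), subunits of the signal peptidase of the ER. Sdc1 was closest to Elovl1 (0.97), Prnp (0.97) and Nceh1 (0.96). Prdm1 reached only 0.89 with Jrk. These r are descriptions over 16 arrays.

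Other genes of the pathway were read from lists. Of 19 immunoglobulin chain genes tested, 12 rose with age (63.2%, against 2.73% of all genes), with a median change of 3.55. The means of the list per lung were -1.89 to 0.35 in PBS ARF-DTR lungs, against -3.79 to -3.21 in 2-month lungs. Igkv3-4 rose 64.2-fold (adjusted p = 0.000961 in limma) and Ighv1-77 by 4.30 ± 0.51 (adjusted p = 0.000463). With DT in ARF-DTR lungs 2 of the 19 rose, Ighv1-77 and Ighv1-61 (10.5%, against 15.8% of all genes). The median change was 0.61, and 4 of 19 rose with median scaling. With DT in wild type lungs none of the 19 passed (limma; 8 had an unadjusted p under 0.05), and the median change was 1.49. Of 25 such genes on the list, 6 have no value here: Igll1, Ighm, Igkv4-55 and Igkv6-15 were well above background on no array, Igkc on 2 and Ighv7-4 on 3.

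Genes of the general ER secretory line mostly did not pass with age. Of 58 genes for protein folding, translocation and the unfolded protein response, 4 rose and 2 fell in 12-month PBS ARF-DTR lungs (median change -0.01). These were 6.9% and 3.45%, against 2.73% and 3.42% of all genes, and with median scaling 1 rose and 3 fell. Creld2 and the ER oxidase gene Ero1b rose by 0.56 ± 0.14 and 0.43 ± 0.07, and Kdelr3 and Erp44 fell by 0.92 and 0.33 (adjusted p = 0.00243 to 0.0326 in limma). With DT in ARF-DTR lungs 25 of the 58 rose and 2 fell (43.1% and 3.45%, against 15.8% and 13.4% of all genes). The median change was 0.20. Risers included Fkbp2 (0.60 ± 0.09), the translocon-associated Ssr2 (0.66 ± 0.10), the disulfide isomerase Pdia3 (0.42 ± 0.07) and the signal peptidase subunit Spcs2 (0.55 ± 0.10). The split for DT moved with the scaling, with 41 higher and none lower when arrays were scaled by their median and 15 higher and 6 lower after quantile normalization. Against the PBS wild type lungs of the same slide 5 of the 58 were higher in DT ARF-DTR lungs (8.62%, against 2.14% of all genes). Among them were Edem1 (0.52 ± 0.11) and Edem3 (0.35 ± 0.06), which mark misfolded glycoproteins for disposal. Genotype and DT differ together there. With PBS in both genotypes, across slides, 5 of the 58 were higher and 12 lower in ARF-DTR lungs. Edem3 was at 0.33 and Fkbp2 at -0.66. Of all genes, 10.9% were higher and 12.7% lower. With DT in wild type lungs, within 1 slide, none of the 58 passed (limma; 10 had an unadjusted p under 0.05), beside 0.179% of all genes. The median change there was 0.05.

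Of 27 other genes of plasma cell survival, homing and identity, 3 rose and 2 fell with age (11.1% and 7.41%, against 2.73% and 3.42% of all genes). Pou2af1, a B lineage coactivator, rose by 1.23 ± 0.24 and Gpr183, a migration receptor, by 0.47 ± 0.10, while Cd38 fell by 0.56 and Zbtb20 fell by 0.44 (adjusted p = 0.00653 to 0.0193 in limma). With DT in ARF-DTR lungs 5 of the 27 rose and 2 fell (18.5% and 7.41%, against 15.8% and 13.4% of all genes), and with median scaling 8 rose and 1 fell. Among those that passed, Cd38 rose by 0.32 ± 0.10 and Trib1 by 0.24 ± 0.07, and Ikzf3 fell by 0.56 and Glcci1 fell by 0.39. Cd38 thus passed in opposite directions in the 2 comparisons, which share the PBS lungs. With PBS in both genotypes, across slides, Ikzf3 was higher by 0.57 and Cd38 lower by 0.40 in ARF-DTR lungs. They were 1 higher and 1 lower of the 27, against 10.9% and 12.7% of all genes. Against same-slide PBS wild type lungs 2 of the 27 were higher in DT ARF-DTR lungs (7.41%, against 2.14% of all genes). These were Ell2 and Mcl1, at 0.60 and 0.32. Genotype and DT differ together there.

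Some genes of B cell identity rose with age, and some fell with DT in ARF-DTR lungs, a comparison that crosses slides. Of 20 B cell identity genes, 3 rose with age (15%, against 2.73% of all genes), and 1 rose with median scaling. The median change was 0.51, and the risers included Spib by 0.79 ± 0.15 (adjusted p = 0.00920 in limma) and Blk by 0.67 ± 0.17 (adjusted p = 0.0364). With DT in ARF-DTR lungs 5 of the 20 fell (25%, against 13.4% of all genes), with a median change of -0.25. Among them were Ciita, which fell by 0.57, Spib, which fell by 0.62, Cd22, which fell by 0.36, and Ebf1, which fell by 0.35. With arrays scaled by their median 2 of the 20 fell and 1 rose. Against PBS wild type lungs of the same slide 3 of the 20 were lower in DT ARF-DTR lungs (15%, against 3.42% of all genes). They were Pax5 at -1.05 ± 0.17, Fcer2a at -0.85 ± 0.20 and Cd79b at -0.84 ± 0.20. Genotype and DT differ together there. With PBS in both genotypes, across slides, 3 of the 20 were lower and 2 higher in ARF-DTR lungs. Pax5 was at -0.70 and Cd79b at -0.79, and the 2 higher were Ciita at 0.50 and Cd22 at 0.31. Ciita and Cd22 were among those that fell with DT, also across slides. Of all genes, 12.7% were lower and 10.9% higher. The means of the list per lung were -0.19 to 0.14 in DT ARF-DTR lungs and -0.15 to 0.49 in PBS ARF-DTR lungs, which overlap. They were 0.03 to 0.43 in DT wild type lungs and 0.33 to 0.35 in PBS wild type lungs, which also overlap.

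Markers of other cells that make some of the 9 genes were counted beside them. With age 2 of 11 T cell markers rose (Lat by 0.88 ± 0.12 and Icos by 0.83 ± 0.19), 1 of 9 plasmacytoid dendritic cell markers rose (Ly6d by 0.72 ± 0.16), and none of 12 macrophage, 7 dendritic cell or 18 epithelial markers passed (limma; 2, 1 and 1 of them had an unadjusted p under 0.05). In addition 5 of 8 mesothelial markers rose and 3 of 9 endothelial markers fell. Of all genes, 2.73% rose with age and 3.42% fell. With DT in ARF-DTR lungs 9 of 12 macrophage, 4 of 7 dendritic cell, 8 of 18 epithelial, 3 of 8 mesothelial and 2 of 9 plasmacytoid dendritic cell markers rose and 1 epithelial marker fell, beside 15.8% of all genes that rose and 13.4% that fell. The risers included Chil3 by 0.88 ± 0.21 and Sftpa1 by 0.65 ± 0.10. The means of the macrophage list per lung were 3.66 to 4.17 in DT ARF-DTR lungs, against 3.16 to 3.71 in PBS ARF-DTR lungs, and those of the epithelial list were 4.69 to 5.03 in DT ARF-DTR lungs, against 4.61 to 4.86 in PBS ARF-DTR lungs. With median scaling 6 of 8 mesothelial markers rose. After quantile normalization 6 of 12 macrophage markers rose, and 2 of 18 epithelial markers rose and 2 fell. Of 11 T cell markers 1 passed with DT in ARF-DTR lungs, Cd4, which fell by 0.80, and with median scaling 3 rose and 1 fell. With PBS in both genotypes, also across slides, Cd4 was higher by 1.03 ± 0.16 in ARF-DTR lungs. Against PBS wild type lungs of the same slide, no T cell marker passed in DT ARF-DTR lungs (limma). With DT in wild type lungs, within 1 slide, none of the markers of these cells passed (limma), beside 0.179% of all genes. Wild type medians were 0.54 (macrophage) and 0.40 (dendritic cell), with 8 of 12 and 4 of 7 at unadjusted p under 0.05. Those of epithelial and mesothelial markers were 0.06 and -0.53. In DT ARF-DTR against same-slide PBS wild type lungs, 1 dendritic cell marker and no macrophage, epithelial or mesothelial marker passed. Of all genes, 5.55% passed. Medians there were 0.47 (macrophage), 0.34 (dendritic cell), -0.03 (epithelial) and 0.10 (mesothelial). Genotype and DT differ together there. The part of these cells in the changes of Sdc1, Xbp1 and Prdm1 was not tested.

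**Figure D4:**
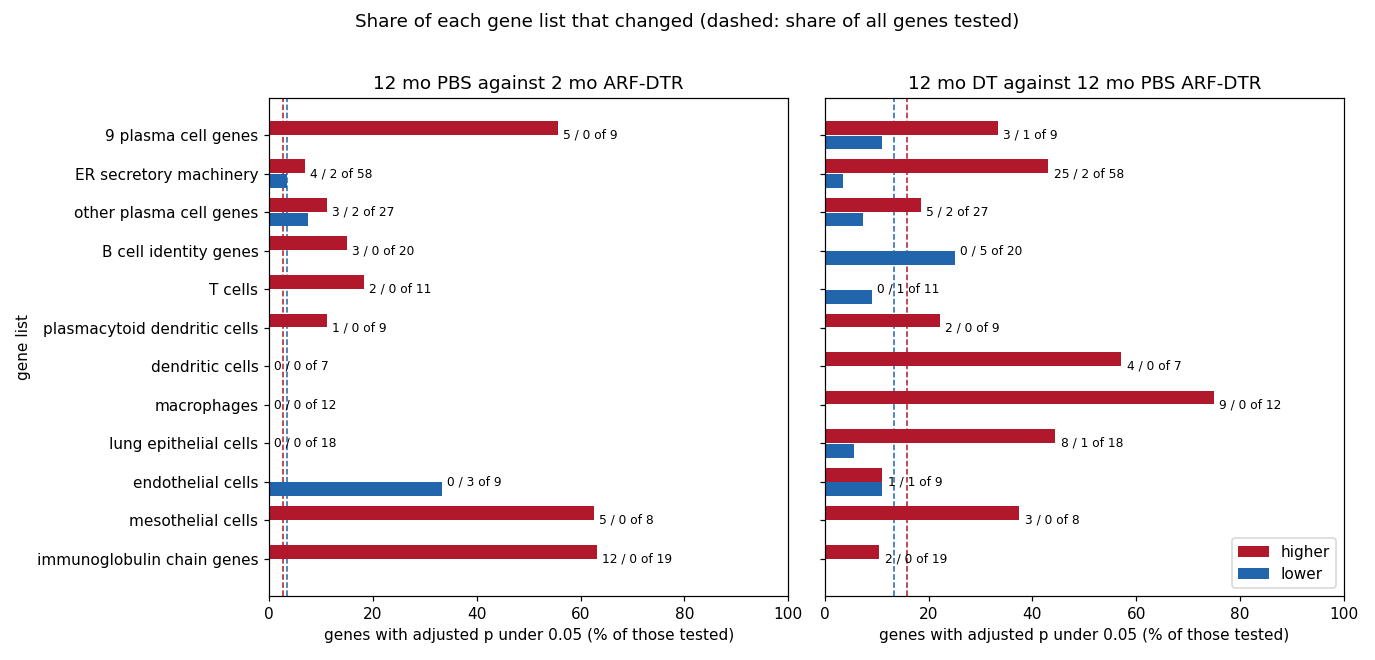
Share of each list of genes that passed the test (horizontal axis, percent of genes tested; red higher, blue lower; the numbers give higher / lower of tested) with age (left) and with DT in ARF-DTR lungs (right), with the shares of all genes as dashed lines. With age the 9 genes and the immunoglobulin genes have 5 of 9 and 12 of 19 higher while the ER list has 4 of 58, and with DT the ER list has 25 of 58 higher.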

How the data were processed

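RNA of homogenised lungs was measured on single-colour Agilent arrays, 1 per sample. Images were read with Agilent Feature Extraction 10.10.1.1, per the submitters' processing notes. Intensity values make up the files that the authors deposited. The background-subtracted signal was used, with the mean spot and local background intensity in 1 alternative. The deposited series table of the authors holds log2 values, which differ from the log2 signal minus the array's 75th percentile by a median absolute 0.00669. Further steps: not given in the sources used here.

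Control spots and outlier spots (105 to 171 per array) were left out, and 0 spots were saturated. The 75th percentile lay between 613 and 1088 intensity units. A probe was kept if well above background on at least 4 of 16 arrays, and the brightest kept probe stood for a gene. Changes were tested in limma 3.58.1 (R 4.3.3, with jsonlite 2.0.0 and the data.table package, 1.17.8), with 1 mean per group over all 16 arrays, and p-values were adjusted by Benjamini-Hochberg over 25675 genes. Values after ± beside a log2 change are standard errors, and the number of arrays limits their precision. The fit was tested on simulated data.

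Groups came from the titles. The free description of wild type PBS replicate 1 names DT, but its title, source name and treatment say PBS. Deviations of same-numbered samples correlated at -0.20 to 0.33, over 0.1 in 4 of 14 pairs, so the numbers were not used as pairs. The 9 genes, the lists and the naming rule (all 9 genes, up to 4 list genes per comparison with the smallest adjusted p, and the 3 most similar genes per member) were chosen with earlier results of these data known. Some genes that the rule names are not reported here. Alternatives covered background, scaling, filter, probe choice, the authors' table, the replicate block and left-out arrays. Slide as a block could not be fitted, because each group lay on 1 slide.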

Additional observations from a re-analysis of the deposited data

Results flagged for a closer look

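Of the 27 sets of 4 lungs looked at (9 genes in 3 groups), 2 held a lung far from the others, where chance gives about 1 in 20. Tnfrsf17 in replicate 2 of the 12-month PBS ARF-DTR lungs was at -3.91 on the scaled log2 scale, while the nearest lung of its group was at -2.03. Tnfrsf17 in replicate 2 of the 2-month ARF-DTR lungs was at -6.01, with the nearest lung at -4.79, and the probe was not well above background on that array. Without the PBS lung, Tnfrsf17 rose by 3.10 with age (adjusted p = 0.000408 in limma) and its change with DT in ARF-DTR lungs was 0.86 (adjusted p = 0.107). The same PBS lung was the lowest of its group for 8 of the 9 genes.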

How the results depend on the processing

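No call turned its direction. Of 648 changes of single genes under 9 other settings, 625 stayed on their side of the threshold, 16 lost the call and 7 gained it, and of 522 with 1 array left out 483 stayed, 35 lost it and 4 gained it. Among the 9 genes, the count with age was 3 in place of 5 when only the groups compared were fitted, which also gave 965 in place of 1578 genes overall. The count with DT in ARF-DTR lungs was 2 in place of 4 with no filter on dim probes. The 1 gene of PBS ARF-DTR against PBS wild type was 0 with quantile normalization, with no filter and with only those groups. With median scaling and with normexp that gene was Sdc1 (adjusted p = 0.0444 and 0.0451) in place of Fkbp11 (adjusted p = 0.0607 and 0.140). Against PBS wild type lungs, DT ARF-DTR lungs gave 1 gene in place of 0 (Prdm1) with a filter of 8 arrays, and 376 in place of 1426 genes overall with only those groups. Overall counts for DT in wild type lungs were 20 with normexp, 28 with median scaling and 0 with only those groups, in place of 46. The interaction gave 2024 with normexp and 289 with no filter, in place of 541. DT ARF-DTR against DT wild type gave 126 with normexp, 3578 with no filter and 6 with only those groups, in place of 237. The cause was not tested. Fits of only the groups compared use fewer arrays, the filter settings use other probes, and normexp and the other scalings change the signal values. With 1 array left out, the counts among the 9 genes ran between 3 and 5 (age), 2 and 5 (DT in ARF-DTR), 7 and 9 (DT ARF-DTR against 2-month), 0 and 1 (PBS genotypes) and stayed at 0 in the other comparisons. Overall counts ran between 927 and 1786, 5386 and 7770, 6045 and 8366, 2324 and 5781, and for the interaction 227 and 1110, DT genotypes 85 and 300, DT ARF-DTR against PBS wild type 205 and 1262, and DT in wild type 78 and 233. Where 1 wild type lung was left, it was assumed to vary like the other groups. Median scaling put the median change of all genes at -0.12 (age), 0.18 (DT in ARF-DTR), 0.14 (interaction) and -0.12 (PBS genotypes). It also moved the split of higher against lower calls, to 1937 and 4347 in place of 2799 and 3260 (PBS genotypes), 336 and 217 in place of 219 and 322 (interaction), 899 and 505 in place of 549 and 877 (DT ARF-DTR against PBS wild type), and 12 and 16 in place of 15 and 31 (DT in wild type). With normexp the split for DT in ARF-DTR was 7176 and 2526, for DT ARF-DTR against 2-month lungs 6557 and 3217, for the PBS genotypes 1852 and 6081, for the interaction 1638 and 386 and for the DT genotypes 70 and 56 in place of 156 and 81. With the replicate number as a block, Irf4 with age and Fkbp11 between PBS genotypes lost the call (adjusted p = 0.0508 and 0.0777), Sdc1 between PBS genotypes gained it (adjusted p = 0.0252), and DT genotypes gave 96 genes overall. No other call of the 9 genes changed under the block, and 10 of 24 best matches between arrays of 2 groups fell on the same number. Dim probes limit Tnfrsf17, which had 3 of 4 arrays above background in 2-month lungs.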
